A study of Mus musculus with 13 samples.

Results

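Podocytes were the nuclei that the deposited annotation of the single nucleus ATAC-seq (snATAC-seq) data of mouse kidney assigns to the cluster Podo, 912 of 28316 nuclei in all. The study profiled open chromatin in nuclei of whole kidneys at birth, during postnatal growth and in adults. At P0, 307 podocyte nuclei came from the first sample and 362 from the second, at P21 there were 47 from 1 sample, and at P56 the samples gave 157 and 39. P0 denotes the day of birth in the labels, although the protocol describes mice of 1 day, and P21 and P56 denote mice of 3 and 8 weeks, which form the adult group. Both kidneys of decapitated newborn mice were lysed in 2 mL of buffer, whereas the older mice were perfused with buffered saline and kidney pieces were lysed in 5 mL, so stage and preparation cannot be told apart. The labels name no allele, treatment, strain or sex and do not say that samples of one stage came from separate litters or animals, so p-values measure only the spread between these samples. Peaks on the Y chromosome held 1.75 and 2.19 of 10000 podocyte open calls (P0), 0.623 (P21) and 1.22 and 1.36 (P56), lower in every adult sample. Xist held 9 and 8 open calls (P0), 7 (P21) and 1 and 7 (P56), counts too few to tell the mix of sexes in each sample, and the part of sex in the results was not tested. Each comparison below set the 2 P0 samples against the 3 adult samples, and every log2 difference is adult minus P0.

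Podocytes are the epithelial cells that wrap the capillaries of the glomerulus. Their foot processes interdigitate and are joined by the slit diaphragm, a junction built around nephrin, and they rest on the glomerular basement membrane, to which they contribute collagen IV and laminin chains. Podocytes leave the cell cycle as they form, and around birth a part of the glomeruli of the mouse kidney is still immature. In ATAC-seq a transposase cuts accessible DNA, so a fragment in a peak marks chromatin that was open in that nucleus. The authors scored each peak in each nucleus as open or not, where a peak with no recovered fragment may still be accessible, and the value tested here was the number of podocyte nuclei of a sample in which a peak was open, called open calls. Gene activity was the sum of open calls over all peaks in the gene body and 2 kb upstream, given as CPM, the sum scaled to a common library size with TMM normalization.

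The sequences that follow are the central 300 bases of 8 peaks that differed between P0 and adult podocytes, 5 of them higher in adult and 3 higher at P0. They are shown because each lies away from an annotated transcription start, where most of the differences were found, and because they hold letters of the motifs that differed in frequency between the adult-higher and the P0-higher peaks. Capitals mark the NFI motif TTGGCA, the glucocorticoid response element ACANNNTGT, the PAR bZIP motif TTANGTAA or the E-box CAGCTG, on either strand, and matches may touch or overlap each other. The bases are those of the GRCm38 (mm10) reference.
Nampt distal peak, chr12:32768346-32768645, + strand: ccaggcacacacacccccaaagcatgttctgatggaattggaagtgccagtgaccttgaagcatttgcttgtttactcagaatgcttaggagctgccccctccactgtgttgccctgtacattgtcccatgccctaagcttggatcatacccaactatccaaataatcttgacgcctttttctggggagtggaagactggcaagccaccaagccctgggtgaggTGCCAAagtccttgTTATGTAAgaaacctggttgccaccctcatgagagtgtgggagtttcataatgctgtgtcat
Zbtb16 intron peak, chr9:48737589-48737888, + strand: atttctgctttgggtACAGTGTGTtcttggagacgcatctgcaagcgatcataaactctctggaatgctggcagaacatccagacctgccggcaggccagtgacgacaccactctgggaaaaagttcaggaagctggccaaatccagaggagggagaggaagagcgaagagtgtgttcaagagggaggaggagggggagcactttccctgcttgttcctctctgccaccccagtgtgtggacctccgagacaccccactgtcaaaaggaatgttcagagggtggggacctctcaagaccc
Nfia intron peak, chr4:97868983-97869282, + strand: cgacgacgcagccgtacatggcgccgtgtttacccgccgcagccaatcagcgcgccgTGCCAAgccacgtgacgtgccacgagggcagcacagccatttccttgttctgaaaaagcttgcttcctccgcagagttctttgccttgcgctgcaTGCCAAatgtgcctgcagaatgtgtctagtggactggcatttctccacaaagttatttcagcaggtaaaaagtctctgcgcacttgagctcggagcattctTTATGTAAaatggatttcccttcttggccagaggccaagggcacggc
Per2 intron peak, chr1:91436473-91436772, + strand: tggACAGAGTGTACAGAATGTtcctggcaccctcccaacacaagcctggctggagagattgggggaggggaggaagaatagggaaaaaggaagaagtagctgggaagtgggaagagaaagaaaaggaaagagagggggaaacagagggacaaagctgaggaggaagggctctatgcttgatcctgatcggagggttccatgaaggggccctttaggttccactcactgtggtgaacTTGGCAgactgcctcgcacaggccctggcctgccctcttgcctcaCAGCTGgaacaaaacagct
Actn4 intron peak, chr7:28917869-28918168, + strand: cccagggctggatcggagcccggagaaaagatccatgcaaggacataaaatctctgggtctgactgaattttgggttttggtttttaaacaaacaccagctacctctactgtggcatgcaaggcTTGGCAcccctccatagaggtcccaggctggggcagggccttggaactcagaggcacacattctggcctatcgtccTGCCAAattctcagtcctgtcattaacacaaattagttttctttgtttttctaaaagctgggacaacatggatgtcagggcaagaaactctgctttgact
Usp6nl distal peak, chr2:6506481-6506780, + strand: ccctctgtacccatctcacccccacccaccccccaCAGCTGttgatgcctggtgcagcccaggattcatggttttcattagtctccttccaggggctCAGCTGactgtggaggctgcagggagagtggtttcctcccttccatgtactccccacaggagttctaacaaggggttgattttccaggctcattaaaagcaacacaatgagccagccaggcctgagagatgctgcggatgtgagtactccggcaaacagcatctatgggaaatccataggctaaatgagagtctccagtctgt
Arpp21 intron peak, chr9:112207958-112208257, + strand: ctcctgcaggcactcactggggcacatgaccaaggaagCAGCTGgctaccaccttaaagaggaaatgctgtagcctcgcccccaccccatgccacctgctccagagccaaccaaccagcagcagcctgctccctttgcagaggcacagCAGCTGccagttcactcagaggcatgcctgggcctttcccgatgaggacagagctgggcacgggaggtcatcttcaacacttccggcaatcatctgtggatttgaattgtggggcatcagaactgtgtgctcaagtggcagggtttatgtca
Jag1 intron peak, chr2:137114647-137114946, + strand: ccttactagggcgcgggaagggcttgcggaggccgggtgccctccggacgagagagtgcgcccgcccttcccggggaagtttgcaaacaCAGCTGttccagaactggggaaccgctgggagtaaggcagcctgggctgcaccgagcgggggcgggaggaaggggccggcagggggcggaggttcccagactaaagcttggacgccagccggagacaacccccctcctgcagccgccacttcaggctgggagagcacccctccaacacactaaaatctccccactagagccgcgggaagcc
The first 5 sequences belong to adult-higher peaks and the last 3 to P0-higher peaks. None of the 5 adult-higher sequences but that of Per2 held the E-box, which all 3 P0-higher sequences held. The sequences were picked after the values were seen, so they illustrate the peaks and do not test the motifs.

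The label Podo was checked against marker genes. The summed open calls of 8 podocyte markers, among them Nphs1, Wt1 and Synpo, made up 13.2 and 14.4 of 10000 open calls of the podocyte nuclei (P0), 18.2 (P21) and 16.3 and 14.3 (P56). The median over the 12 other cell types was 3.34 at P0 and 2.44 in adults, and the highest of them was the endothelium with 6.05 at P0 and 8.02 in adults. The endothelium and both stroma clusters were higher in adults and the 9 other clusters lower. Nephron progenitor markers stood at 1.63 and 1.59 at P0 and at 1.04, 0.716 and 0.619 in adults, without overlap. Proximal tubule markers moved the other way, with 1.13 and 1.02 at P0 and 3.01, 1.94 and 4.00 in adults, against 8.72 and 12.6 in the proximal convoluted tubule nuclei of the P0 and adult samples. Among the tubule markers that passed the test of podocyte gene activity as higher in adult were Slc27a2, Slc34a1 and Lrp2, with log2 differences of 1.65, 1.43 and 1.07, while Kap and Akr1c21 were at or near 0. Endothelial markers ran from 2.34 to 2.35 at P0 and from 1.09 to 2.31 in adults.

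A nucleus was counted as mixed when another list had a larger share of its peaks open than the podocyte list. There were 277 such nuclei, 114 and 103 at P0 and 7, 40 and 13 in the P21 and P56 samples. The podocyte list held 117 peaks and the principal cell list 11, so a single open peak weighs more in a short list. Nuclei with few open peaks can therefore be counted as mixed on a single open call, and how many were was not tested. Without them the proximal tubule level was 1.01 and 0.941 at P0 and 1.31, 0.765 and 0.347 in adults, partly by construction. The counts of called members in each list are given without these nuclei as well. The podocyte sums held 1289008 and 1834632 open calls (P0), 192729 (P21) and 474684 and 242481 (P56), and the median nucleus had from 2613 to 5017 open peaks. Podocytes made up 5.19% and 6.76% of the nuclei of the 13 cell types (P0), 1.44% (P21) and 2.27% and 0.629% (P56), where the exact two-sided permutation test gave p = 0.2, the smallest value that 2 against 3 samples allow. A single barcode was shared between podocyte nuclei of different libraries, and 477 barcodes were shared between libraries over the nuclei of all clusters.

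**Figure D1:**
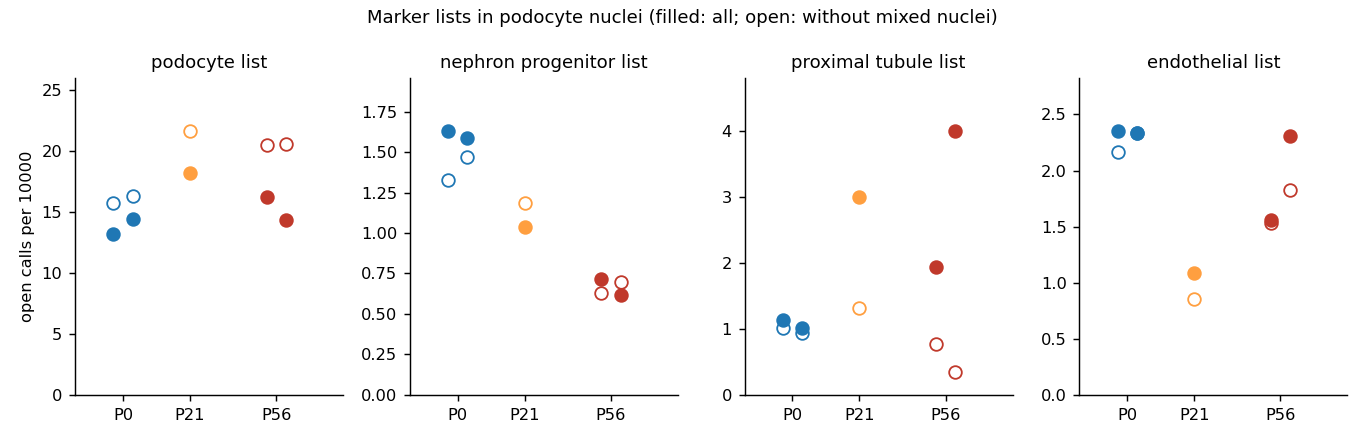
Open calls in the windows of 4 marker lists per 10000 open calls of the podocyte nuclei (y axis) in each sample by stage (x axis), for all podocyte nuclei (filled points) and without mixed nuclei (open points). The podocyte list stays between 13.2 and 18.2 over all nuclei, the nephron progenitor list is lower and the proximal tubule list higher in the 3 adult samples, and without mixed nuclei the proximal tubule list is between 0.347 and 1.31 in every sample.

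Chromatin of podocytes differed between birth and adulthood at a minority of genes, in both directions. Of 13452 genes tested with the edgeR quasi-likelihood test, 899 were higher in adult podocytes, 6.68% of the genes tested, and 833 were lower, 6.19%. Of these 1732 genes 1679 had no overlap between the P0 and the adult samples, as had 37.1% of all genes tested, and 786 differed by more than 1 on the log2 scale. Of 13523 peaks tested, 862 were higher in adult podocytes, 6.37%, and 493 were lower, 3.65%. The 1355 called peaks had a median log2 difference of 1.47 in size, and in 1271 of them the samples of the stages did not overlap, as in 34.1% of all peaks tested. The balance of directions at peaks was not stable, since 431 were higher and 3367 lower without a filter on low counts, and 183 higher and 215 lower when the second P0 sample was left out. DESeq2 called 399 genes, 261 higher and 138 lower, and 494 peaks, 405 higher and 89 lower, and each of these was called by edgeR in the same direction.

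These counts depend on how the samples were scaled. When the sums were divided by the number of nuclei in place of TMM normalization, the median gene shifted from 0.01 to -0.17, and 26 genes were called higher and 145 lower in adult. For peaks the same scaling gave 98 higher and 161 lower. All differences below are therefore relative to the other genes or peaks of the same nuclei. Of 206 genes in the 11 lists described below 190 were tested and 53 were called, 41 higher and 12 lower; all 53 kept their sign under scaling by nuclei, where 1 of them was called. Of the 53, 19 were also called by DESeq2, and 34 were called in the same direction without mixed nuclei. With 1 sample left out, 21 remained without the first P0 sample, 22 without the second, 33 without P21, and for the P56 samples 29 with the first left out and 43 with the second left out.

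**Figure D2:**
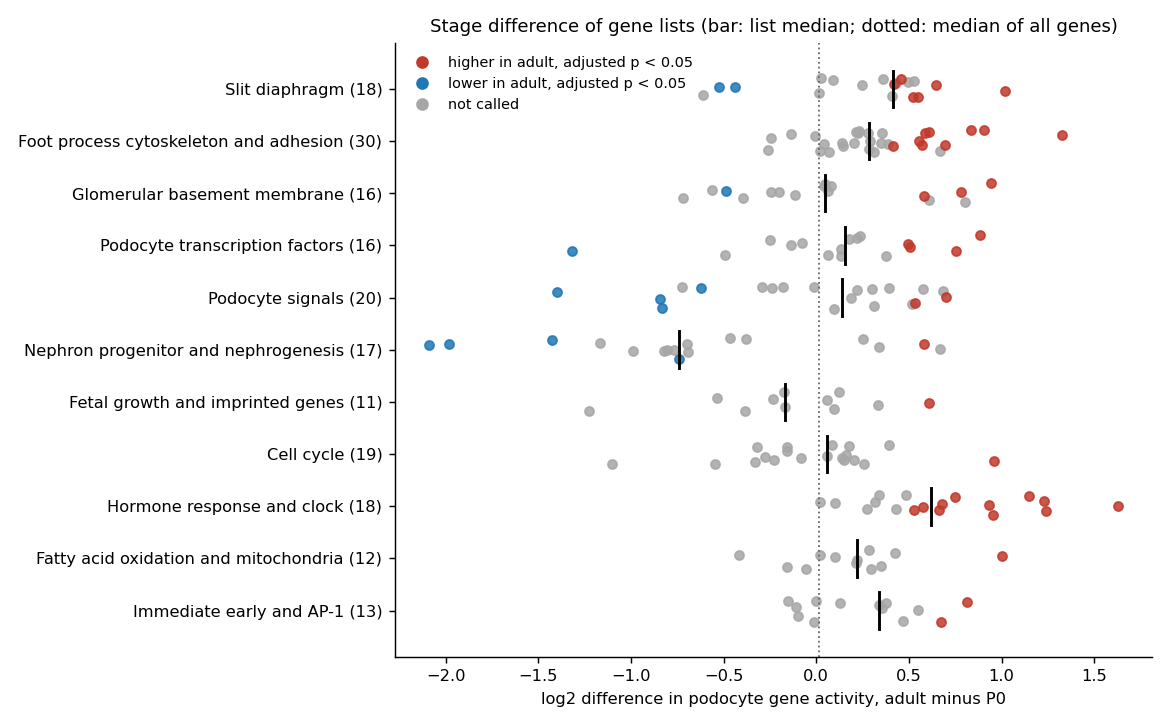
Log2 difference in podocyte gene activity, adult minus P0 (x axis), for the tested members of 11 gene lists (y axis, with the number tested). Each point is 1 gene, red or blue where the edgeR adjusted p was under 0.05, the bar is the median of the list and the dotted line the median of all genes at 0.01. The hormone response and clock list has its median at 0.62 and the nephron progenitor list at -0.74.

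A part of the slit diaphragm genes was higher in adult podocytes, while nephrin did not pass the test. Of 18 tested members 6 rose, among them Plce1, Magi2, Pard3, Fat1 and Tjp1, and 2 fell, Kirrel3 and Magi1, while 10 did not pass the test. Over all genes tested 6.68% rose and 6.19% fell. The median difference of the list was 0.42, against 0.01 over all genes. DESeq2 called 2 members higher and none lower, and without mixed nuclei 5 were called higher, Kirrel now among them and Pard3 not, and 1 lower, Magi1. Leaving out either P0 sample left 1 member higher and none lower, leaving out P21 gave 3 and none, the first P56 sample 2 and 1, and the second P56 sample 9 and none.

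Plce1, which encodes phospholipase C epsilon and is mutated in hereditary nephrotic syndrome, had the largest difference of the list. Its gene activity was 158 and 183 (P0), 412 (P21) and 359.7 and 277 (P56). All 3 adult samples lay above both P0 samples, with a difference of 1.02 ± 0.15 (SE, edgeR adjusted p = 1.03e-05, DESeq2 adjusted p = 1.73e-04). Magi2, a scaffold protein of the slit diaphragm at chr5:19227036-20704792, had 305 and 326 (P0), 521 (P21) and 561 and 371 (P56). The adult samples were again all higher, by 0.64 ± 0.14 (adjusted p = 0.00136 with edgeR and 0.0286 with DESeq2).

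Nphs1, which encodes nephrin, had 151 and 145 (P0), 183 (P21) and 119 and 174 (P56). The stages overlapped and the difference was 0.01 ± 0.17 (edgeR adjusted p = 0.979). Of the open calls of Nphs1, 65.4% lay in peaks that are also in the window of Kirrel2, its neighbour and a related junction protein, for which the difference was 0.09 ± 0.18 (edgeR adjusted p = 0.834). Kirrel, which encodes Neph1, a binding partner of nephrin, had 209 and 226 (P0), 281 (P21) and 306 and 272 (P56). The adult samples of Kirrel were all higher than those of P0, but with a difference of 0.41 ± 0.14 it did not pass (edgeR adjusted p = 0.0517).

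Among the other members that rose, Pard3, a polarity protein, differed by 0.46 ± 0.13, Fat1, a giant protocadherin of the slit, by 0.52 ± 0.14 and Tjp1, which encodes the junction protein ZO-1, by 0.42 ± 0.13. The call of Pard3 was lost without mixed nuclei (edgeR adjusted p = 0.101), with DESeq2 (adjusted p = 0.0868) and without any 1 sample but the second P56 sample. The difference of Tjp1 turned to -0.12 with equal numbers of nuclei and to -0.25 over peaks at starts alone. The 2 members that fell were Kirrel3, with 230.0 and 225 (P0), 137 (P21) and 173 and 150.2 (P56) and a difference of -0.53 ± 0.16, and Magi1, a scaffold related to Magi2, with -0.44 ± 0.15. The call of Kirrel3 was lost without mixed nuclei (edgeR adjusted p = 0.128), with DESeq2 (adjusted p = 0.226) and without any 1 sample but the first P56 sample. Pla2r1, the receptor that is the main autoantigen of membranous nephropathy, had 60.6 and 48.0 (P0), 5.73 (P21) and 48.6 and 32.9 (P56). Its P56 sample with 48.6 reached the range of P0, and its difference of -0.61 ± 0.32 did not pass. The calcium channel gene Trpc6 held too few open calls to be tested.

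In the list of the foot process cytoskeleton and adhesion, all called genes were higher in adult. Of 30 tested members 9 rose and none fell with edgeR, against 6.68% and 6.19% of all genes, while 4 rose and none fell with DESeq2. Without mixed nuclei 9 rose, with Shroom3 called in place of Ezr, and none fell. Without either P0 sample 4 rose, and without P21 6. The list had a median of 0.29, and 26 of its 30 differences were positive.

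Myo1e, an unconventional myosin of the foot process at chr9:70207350-70399766, had 159.8 and 172 (P0), 447 (P21) and 423 and 385 (P56). Each adult sample was above both P0 samples, and the mean rose from 166 ± 8.69 at P0 (SD, n = 2) to 418 ± 31.2 in adults (SD, n = 3), a difference of 1.33 ± 0.14 (edgeR adjusted p = 1.85e-08). Actn4, an actin crosslinker whose mutation causes focal segmental glomerulosclerosis, had 231 and 282 (P0), 509.7 (P21) and 459 and 498 (P56). The adult samples were close to each other and clear of P0, with a difference of 0.90 ± 0.14 (edgeR adjusted p = 1.41e-05). Clic5, which links ezrin and podocalyxin to actin, had 196 and 199 (P0), 418 (P21) and 350.0 and 300.4 (P56). It was higher in all adult samples, by 0.83 ± 0.14 (edgeR adjusted p = 9.3e-05).

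The remaining members that rose differed by less than these. Arhgap24, which inactivates Rac, rose by 0.69 ± 0.12, the membrane to actin linker Ezr by 0.59 ± 0.15, a call lost without mixed nuclei (0.45, edgeR adjusted p = 0.0859), with DESeq2 (adjusted p = 0.112) and without the first P56 or either P0 sample, and Arhgap28, which inactivates RhoA, by 0.41 ± 0.13. Parva, a partner of integrin-linked kinase, rose by 0.57 ± 0.14, the matrix receptor Dag1 by 0.55 ± 0.16 and the intermediate filament gene Vim by 0.61 ± 0.21. Well known podocyte genes of the same list did not pass, among them Synpo, an actin binding protein of the foot process, with 414 and 405 (P0), 544 (P21) and 510.4 and 441 (P56) and a difference of 0.28 ± 0.13 (edgeR adjusted p = 0.160). The sialomucin gene Podxl differed by 0.28 ± 0.15 (edgeR adjusted p = 0.235), and the integrin subunit genes Itga3 and Itgb1 by 0.15 ± 0.16 and -0.01 ± 0.20. The small GTPase genes Rhoa, Rac1 and Cdc42 differed by 0.04 ± 0.20, 0.31 ± 0.22 and 0.23 ± 0.25, and none passed.

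**Figure D3:**
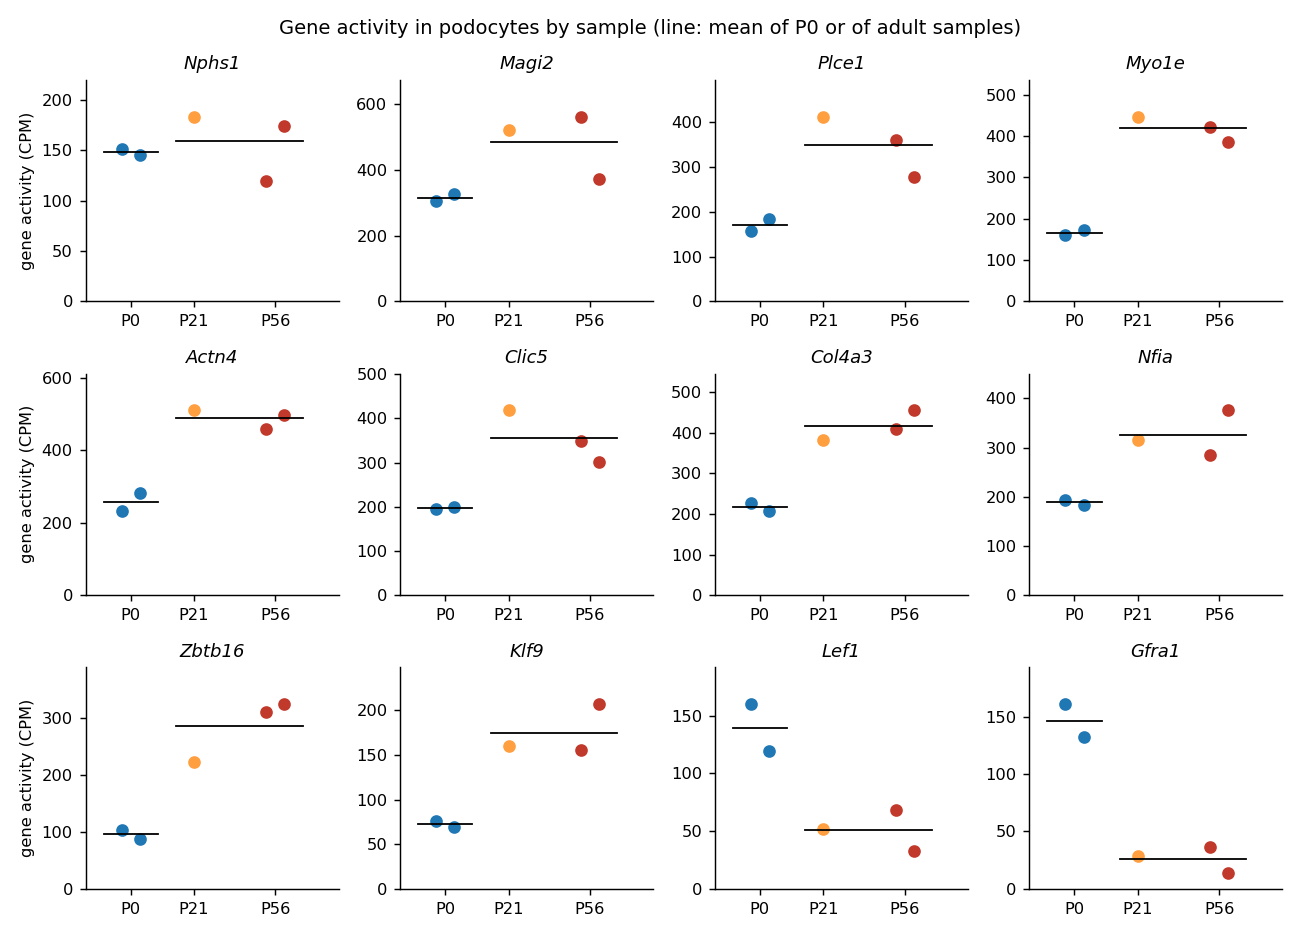
Gene activity of 12 genes in podocytes (y axis, CPM) in each sample by stage (x axis). Points are samples and lines are the means of the 2 P0 and of the 3 adult samples. Nphs1 overlaps between the stages, Lef1 and Gfra1 are lower in all 3 adult samples, and the other 9 genes are higher in all 3 adult samples.

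Few genes of the glomerular basement membrane list were called. Of 16 tested members 3 rose with edgeR, Col4a3, Col4a4 and Npnt, and 1 fell, Col4a2, where 6.68% of all genes rose and 6.19% fell, so the share that fell was near that of all genes. DESeq2 called 1 higher, and without mixed nuclei 3 rose and 4 fell, the latter being Col4a2, Lama1, Lamb1 and Hspg2. Without the first P56 sample 1 rose, without either P0 sample or P21 2 rose, none of these fits gave a fall, and without the second P56 sample 3 rose and 2 fell. The median was 0.05, and it was -0.07 when scaled by nuclei, where the median of all genes was -0.17.

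Col4a3, a chain of the collagen network that replaces the fetal one in the mature membrane, had 227 and 208 (P0), 384 (P21) and 411 and 455 (P56). All adult samples were higher, by 0.94 ± 0.14 (edgeR adjusted p = 9.01e-06). Its divergently transcribed partner Col4a4 had 112 and 97.7 (P0), 166 (P21) and 156 and 146 (P56) and rose by 0.58 ± 0.16 (edgeR adjusted p = 0.0141), although 43.2% of its open calls lay in peaks shared with the window of Col4a3. The call of Col4a4 was lost without mixed nuclei (edgeR adjusted p = 0.109), with DESeq2 (adjusted p = 0.295) and without any 1 sample but the second P56 sample (edgeR adjusted p from 0.0548 to 0.312). Col4a5, the chain that joins these, had 36.0 and 26.4 (P0), 68.7 (P21) and 43.7 and 32.9 (P56) and a difference of 0.61 ± 0.31, which did not pass, and 75.4% of its open calls were shared with Col4a6. Col4a2, a chain of the fetal network, had 227 and 195 (P0), 126 (P21) and 143 and 178 (P56). It fell by 0.49 ± 0.17 (edgeR adjusted p = 0.0460), while its partner Col4a1 differed by 0.05 ± 0.17 and overlapped between the stages. The call of Col4a2 was lost with DESeq2 (adjusted p = 0.361) and without either P0 sample, P21 or the first P56 sample (edgeR adjusted p from 0.0832 to 0.362).

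Npnt, which encodes the matrix protein nephronectin, had 99.2 and 107 (P0), 143 (P21) and 209 and 155 (P56) and rose by 0.78 ± 0.16 (edgeR adjusted p = 9.17e-04). The laminin genes did not pass as whole genes, with 0.06 ± 0.16 for Lama5 and 0.08 ± 0.19 for Lamb2, chains of the mature laminin, and -0.40 ± 0.26 for Lama1 and -0.24 ± 0.21 for Lamb1, chains of the immature one. Agrn and Hspg2, which encode the heparan sulfate proteoglycans agrin and perlecan, differed by 0.04 ± 0.17 and -0.56 ± 0.20, without passing.

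Of the podocyte transcription factors, those that specify the cell type, such as Wt1 and Tcf21, overlapped between the stages while Nfia rose and Lef1 fell. Of 16 tested members 4 rose and 1 fell, against 6.68% and 6.19% of all genes, DESeq2 called 2 higher and 1 lower, and without mixed nuclei 4 rose and 2 fell. Without the first P0 sample 1 rose and 1 fell, as without the second, and without the first P56 sample 2 rose and 1 fell. The median was 0.15. Wt1, the zinc finger factor that podocytes require throughout life, had 178 and 197 (P0), 223 (P21) and 187 and 127 (P56). The stages overlapped, and the difference was -0.08 ± 0.17 (edgeR adjusted p = 0.847). Tcf21, Foxc1 and Foxc2 also overlapped, with differences of -0.25 ± 0.19, 0.13 ± 0.20 and 0.17 ± 0.26.

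Nfia, a nuclear factor I gene at chr4:97772734-98118874, had 194 and 184 (P0), 315 (P21) and 284 and 376 (P56). It was higher in each adult sample, by 0.75 ± 0.15 (edgeR adjusted p = 3.75e-04), whereas the related Nfib had 203 and 195 (P0), 195 (P21) and 189.6 and 286 (P56) and differed by 0.13 ± 0.16 without passing. Without mixed nuclei the difference of Nfia was 0.44 and did not pass (edgeR adjusted p = 0.0898), and that of Nfib was -0.62. Tead1, a DNA binding partner of the Hippo effectors, rose by 0.50 ± 0.13 (edgeR adjusted p = 0.00771). Klf15, a glucocorticoid responsive Krüppel-like factor, had 38.6 and 37.2 (P0), 40.1 (P21) and 77.8 and 79.8 (P56). Its P21 sample was near P0 and both P56 samples were higher, and the difference was 0.88 ± 0.26 (adjusted p = 0.0200 with edgeR and 0.345 with DESeq2), which was 0.50 without mixed nuclei (edgeR adjusted p = 0.442). Lef1, a nuclear effector of Wnt signalling, had 159.8 and 119 (P0), 51.5 (P21) and 68.0 and 32.9 (P56). Its adult samples were all lower, and it fell by 1.32 ± 0.23 (adjusted p = 9.18e-05 with edgeR and 0.00996 with DESeq2).

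Among signals and their receptors 2 of 20 tested members rose and 4 fell with edgeR, where 6.68% of all genes rose and 6.19% fell, and none passed with DESeq2. Without mixed nuclei 1 rose, Sulf1, and 2 fell, Pdgfa and Notch1. With 1 sample left out, none or 1 rose and from none to 3 fell, with none lower without the first P0, the P21 or the first P56 sample. Vegfa, the growth factor by which podocytes maintain the glomerular endothelium, had 84.3 and 94.1 (P0), 120.3 (P21) and 126 and 146 (P56). The adult samples were all higher and the difference was 0.53 ± 0.17 (edgeR adjusted p = 0.0348). Its call was lost with DESeq2 (adjusted p = 0.406), without mixed nuclei (0.24, edgeR adjusted p = 0.609) and with any 1 sample left out (edgeR adjusted p from 0.0608 to 0.313). Sulf1, an extracellular sulfatase that trims heparan sulfate, had 118 and 94.1 (P0), 178 (P21) and 185 and 136 (P56) and rose by 0.70 ± 0.17 (edgeR adjusted p = 0.00345). The members that fell were Pdgfa, a ligand of the platelet-derived growth factor receptor, the Notch ligand gene Jag1, its receptor gene Notch1, and Rspo1, which potentiates Wnt signals. Pdgfa had 66.7 and 76.2 (P0), 40.1 (P21) and 36.5 and 46.9 (P56) and fell by 0.85 ± 0.25. Jag1 had 164 and 133 (P0), 97.3 (P21) and 85.1 and 113 (P56) and fell by 0.62 ± 0.19 (edgeR adjusted p = 0.0216), a call lost with DESeq2 (adjusted p = 0.326), without mixed nuclei (edgeR adjusted p = 0.208) and without the first P0, the P21 or the first P56 sample (edgeR adjusted p from 0.0840 to 0.265). Notch1 had 159 and 124 (P0), 57.3 (P21) and 51.0 and 146 (P56), and its second P56 sample lay within the range of P0. It fell by 0.83 ± 0.25 (edgeR adjusted p = 0.0335), while Notch2 overlapped between the stages with 0.22 ± 0.15. Angpt1, Bmp7 and Efnb2 did not pass, with -0.24 ± 0.32, -0.01 ± 0.15 and -0.18 ± 0.19.

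A part of the genes of nephron progenitors and of early nephrogenesis had lower activity in adult podocytes. Of 17 tested members 4 fell, namely Itga8, Uncx, Sox11 and Meis1, and 1 rose, Hoxc6, against 6.19% and 6.68% of all genes. The list median was -0.74 in podocytes and -0.95 in the 12 other cell types of the same samples. No member passed the contrast with those cell types that is described below, so a fall particular to podocytes was not shown. Those cell types include the nephron progenitor cluster, where the level of the progenitor markers was 3.10 at P0 and 0.623 in adults. The progenitor marker list above, whose genes are all members of the nephrogenesis list, is not an independent measure of it. DESeq2 called none of them, and without mixed nuclei 1 fell, Itga8, and 1 rose. Without either P0 sample 2 fell, without P21 3, and of the P56 samples, leaving out the first gave none and leaving out the second 5. Itga8, the integrin subunit that receives nephronectin, had 68.5 and 67.2 (P0), 22.9 (P21) and 19.4 and 37.6 (P56). The adult samples were all lower, and it fell by 1.43 ± 0.30 on the log2 scale (edgeR adjusted p = 9.93e-04). Sox11, a high mobility group factor of embryonic kidney, had 29.9 and 39.0 (P0), 0 (P21) and 9.72 and 14.1 (P56) and fell by 1.98 ± 0.49. Meis1, a homeodomain factor, fell by 0.74 ± 0.19, and Uncx, a homeodomain gene of progenitors, fell by 2.09 ± 0.59 on few open calls. Six2, the gene that defines self-renewing progenitors, held 24 and 50 (P0), 1 (P21) and 5 and 0 (P56) open calls and was under the filter on low counts.

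The shares of fetal growth and cell cycle genes that were called were close to those over all genes, of which 6.68% rose. Of 11 tested genes of fetal growth and imprinting 1 rose, Igf1r, the receptor of insulin-like growth factors, with 394 and 374 (P0), 515 (P21) and 605 and 615 (P56) and a difference of 0.61 ± 0.13 (edgeR adjusted p = 9.6e-04), which was -0.12 over peaks at starts alone. The call of Igf1r was lost without mixed nuclei (0.41, edgeR adjusted p = 0.0538) and without the second P0 sample (edgeR adjusted p = 0.105). Without mixed nuclei no member of this list rose and 2 fell, Igf2bp3 and Hmga2. The imprinted genes Igf2, H19, Dlk1 and Meg3 held too few open calls to be tested. Of 19 tested cell cycle genes 1 rose, Top2a, with 20.2 and 35.4 (P0), 80.2 (P21) and 41.3 and 65.7 (P56), which was also called without mixed nuclei but not with DESeq2 or without the first P0, the P21 or the second P56 sample, and Mki67 overlapped between the stages with 36.0 and 42.6 (P0), 40.1 (P21) and 31.6 and 46.9 (P56). The cell cycle list had a median of 0.06, and -0.12 when scaled by nuclei.

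The list with the largest share of calls was that of hormone response and the circadian clock. The lists were chosen with earlier results of these data known, so this rank is not an independent result. Of the 18 tested members of this list 11 rose, against 6.68% of all genes. None fell and all 18 differences were positive, with a median of 0.62. DESeq2 called 8 of them, and 8 were called without mixed nuclei. Without the first P0 sample 6 rose, without the second 7, and without 1 of the adult samples from 10 to 12. Several are direct targets of the glucocorticoid receptor. Zbtb16, a zinc finger repressor induced by glucocorticoids, had 104 and 88.1 (P0), 223 (P21) and 311 and 324 (P56). All adult samples were higher, by 1.63 ± 0.16 (adjusted p = 4.89e-09 with edgeR and 6.94e-09 with DESeq2). Klf9, which glucocorticoid and thyroid hormone receptors both induce, had 76.4 and 69.0 (P0), 160.3 (P21) and 156 and 207 (P56). It rose by 1.24 ± 0.17 (edgeR adjusted p = 3.78e-06). Tsc22d3, the glucocorticoid-induced leucine zipper gene, had 57.1 and 52.8 (P0), 132 (P21) and 119 and 141 (P56) and rose by 1.23 ± 0.19, and Fkbp5, a chaperone of the steroid receptors, had 115 and 112 (P0), 235 (P21) and 177 and 277 (P56) and rose by 0.95 ± 0.16.

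The clock genes of the list rose in part. The labels do not give the hour at which kidneys were collected, and its part in the differences of this list was not tested. Nr1d1, which encodes the clock repressor REV-ERB alpha, had 97.5 and 111 (P0), 189 (P21) and 199 and 329 (P56) and rose by 1.15 ± 0.17 (edgeR adjusted p = 1.31e-05), of which 9.15% of the open calls are shared with the overlapping gene Thra. Dbp, a PAR bZIP factor driven by the clock, rose by 0.75 ± 0.16, and the period gene Per1 by 0.57 ± 0.15. Per2, Per3 and Arntl, the latter a core activator of the clock, did not pass, with 0.34 ± 0.15, 0.02 ± 0.24 and 0.32 ± 0.16. Of the receptors in the list, the thyroid hormone receptor genes Thra and Thrb rose by 0.53 ± 0.17 and 0.93 ± 0.18. The insulin receptor gene Insr rose by 0.68 ± 0.16 and the orphan receptor gene Rora by 0.66 ± 0.13. The calls of Thra, Thrb and Insr were lost without mixed nuclei. The glucocorticoid receptor gene Nr3c1 itself had 103 and 101 (P0), 137 (P21) and 126 and 155 (P56). Its adult samples were all higher, but the difference of 0.43 ± 0.17 did not pass (edgeR adjusted p = 0.0889).

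The remaining lists gave 1 and 2 calls, where 6.68% of all genes rose, and the share of the fatty acid list was near that of all genes. Of 12 tested genes of fatty acid oxidation and mitochondria 1 rose, Ppara, the nuclear receptor that controls fatty acid oxidation, with 57.1 and 47.4 (P0), 109 (P21) and 82.6 and 136 (P56) and a difference of 1.00 ± 0.22 (edgeR adjusted p = 0.00130). Proximal tubule markers were also higher in the adult podocyte sums. Without mixed nuclei these markers were lower, partly by construction. There the difference of Ppara was 9.4e-04 and did not pass, and no member of the list rose while Esrrg fell. DESeq2 did not call Ppara either (adjusted p = 0.0588). The part of proximal tubule chromatin in the difference of Ppara was not tested. Of 13 tested immediate early and AP-1 genes 2 rose, Atf3 by 0.81 ± 0.18 and Junb by 0.67 ± 0.19, while Fos, Jun and Egr1 overlapped between the stages. DESeq2 called none of them, and without mixed nuclei 2 rose, Atf3 and Klf2.

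The 10 genes with the smallest p among those without overlap were named in each direction, whether or not they were in a list. Il6ra, the interleukin-6 receptor at chr3:89864059-89913196, had 74.6 and 64.2 (P0), 195 (P21) and 272 and 258 (P56). Every adult sample was higher, and the difference was 1.86 ± 0.16 (edgeR adjusted p = 5.23e-10). Hlf, a PAR bZIP factor related to Dbp, had 50.9 and 64.2 (P0), 172 (P21) and 197 and 258 (P56) and rose by 1.83 ± 0.17. Prkaa2, which encodes a catalytic subunit of the energy sensor AMPK, had 40.4 and 33.0 (P0), 120.3 (P21) and 139 and 164 (P56) and rose by 1.97 ± 0.21. Mtor, the growth kinase that AMPK restrains, had 108 and 123 (P0), 315 (P21) and 284 and 314 (P56) and rose by 1.37 ± 0.15. The others were Aldh1l1, a folate enzyme, with 1.58 ± 0.16, Apbb2, an adaptor of the amyloid precursor protein, with 1.17 ± 0.13, Ankrd44, a regulatory subunit of a phosphatase, with 1.22 ± 0.15, and Ston2, an endocytic adaptor, with 1.24 ± 0.15. Zbtb16 and Myo1e, described above, complete the 10, and all 10 were also called by DESeq2, with adjusted p of 6.94e-06 or less.

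On the P0 side, Cdh4, which encodes R-cadherin, had 388 and 337 (P0), 103 (P21) and 134 and 84.5 (P56). The 3 adult samples were all far below P0, and it fell by 1.67 ± 0.18 (edgeR adjusted p = 1.85e-08). Gfra1, the receptor of the growth factor GDNF at chr19:58235604-58455909, had 161 and 132 (P0), 28.6 (P21) and 36.5 and 14.1 (P56) and fell by 2.32 ± 0.25 (edgeR adjusted p = 3.44e-08). The axon guidance genes Slit1 and Ephb2 had differences of -2.34 ± 0.29 and -1.57 ± 0.21, and the synaptic adhesion gene Nrxn3 of -2.22 ± 0.26. Ggta1, a galactosyltransferase gene, had 101 and 92.9 (P0), 5.73 (P21) and 21.9 and 14.1 (P56) and fell by 2.56 ± 0.31. Ppp2r2c, a phosphatase subunit gene, Rnf165, a ubiquitin ligase gene, Prune2 and Tcerg1l had differences of -2.86, -2.57, -1.75 and -1.77. All 10 were also called by DESeq2, with adjusted p of 0.00231 or less.

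The differences lay mostly away from transcription starts. Of 9285 tested peaks over an annotated start 113 were higher in adult podocytes, 1.22%, and 220 were lower, 2.37%. Of 4238 tested peaks away from starts 749 were higher, 17.7%, and 273 were lower, 6.44%. With DESeq2 the shares were 0.420% higher and 0.280% lower over starts and 8.64% higher and 1.49% lower away from them. Without mixed nuclei they were 0.778% and 1.29% over starts and 16.4% and 2.10% away. Scaled by nuclei they were 0.0646% and 0.528% over starts and 2.17% and 2.64% away, so under that scaling adult-higher peaks were still more frequent away from starts than over them, but were there no more frequent than P0-higher peaks. The tested peaks are those open in enough podocytes, 41.5% of all peaks over starts and 1.52% of the others. Some passed this filter through the stage where they were higher. An intron peak of Pitpnc1 held 1 and 7 open calls at P0, and the peak at chr15:52161731-52162382 held none in any adult sample. A larger share of calls away from starts can therefore be partly built in by the filter, to an extent that was not tested.

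In the windows of podocyte genes, too, the called peaks lay mostly away from starts, after the same filter. The most open peak at the start was tested for genes of the slit diaphragm, foot process, basement membrane, transcription factor and signal lists. Of these 81 distinct start peaks none was higher in adult, while 2 were lower. These were the starts of Lama1 and Lama5, laminin alpha chains of the immature and the mature membrane. Of all tested peaks over a start 1.22% were higher and 2.37% lower, and the counts of the podocyte lists were near these shares. The start of Lama5 was open in 20.2 and 20.99% of podocytes (P0), 14.9% (P21) and 3.18 and 12.8% (P56) and fell by 1.24 ± 0.33 (adjusted p = 0.00810 with edgeR and 0.135 with DESeq2). Within the windows of these lists 220 peaks were tested and 37 were called, 30 higher and 7 lower. Of the 128 window peaks away from starts 28 were higher, 21.9%, and 5 lower, 3.91%, against 17.7% and 6.44% of all tested peaks away from starts. Some of these passed the filter through the adult samples, as the Nfia intron peak printed above, with 1 and 9 open calls at P0. The part of the filter in these shares was not tested. Of the 92 window peaks over a start 2 were higher and 2 lower, 2.17% each, against 1.22% and 2.37% of all tested peaks over starts. DESeq2 called 13 of the 37. The slit diaphragm windows held 6 called peaks and the foot process windows 14, all higher in adult. The basement membrane windows held 3 higher and 3 lower, the transcription factor windows 5 and 2, and the signal windows 2 and 2.

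Plce1 held 2 adult-higher peaks, and that at chr19:38504826-38505211 was open in 3.26 and 4.97% of podocytes (P0), 12.8% (P21) and 6.37 and 20.5% (P56). Actn4 held the intron peak whose sequence is printed above, which was open in 5.54 and 5.52% of podocytes (P0), 14.9% (P21) and 17.2 and 25.6% (P56). All adult samples were higher there, by 2.00 ± 0.35 (edgeR adjusted p = 3.04e-05), and the sequence holds the NFI motif at 2 places. Cttn, which encodes the actin regulator cortactin, did not pass as a gene but held a peak over one of its starts that was open in 0.651 and 1.105% of podocytes (P0), 6.38% (P21) and 8.92 and 17.9% (P56). That peak rose by 3.66 ± 0.60 (edgeR adjusted p = 1.01e-05). In Nfia the printed intron peak was open in 0.326 and 2.49% of podocytes (P0), 12.8% (P21) and 8.92 and 23.1% (P56) and rose by 3.25 ± 0.51 (edgeR adjusted p = 6.89e-06). The printed peak of Jag1 lay 1847 bp from its start and was open in 16.0 and 14.1% of podocytes (P0), 2.13% (P21) and 3.82 and 7.69% (P56) and fell by 1.54 ± 0.43 (adjusted p = 0.0102 with edgeR and 0.106 with DESeq2). Tcf21, which did not pass as a gene, held a peak 2091 bp from its start that was open in 17.9 and 15.5% of podocytes (P0), 6.38% (P21) and 5.73 and 2.56% (P56) and fell by 1.32 ± 0.39 (adjusted p = 0.0173 with edgeR and 0.142 with DESeq2).

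In the windows of the hormone and clock list 13 of 36 tested peaks were called, all higher in adult. These were 9 of the 15 tested away from starts and 4 of the 21 over a start, against 17.7% and 1.22% of all tested peaks. DESeq2 called 12 of the 13. The list was chosen with earlier results of these data known, so these shares are not an independent test. Some of these peaks passed the filter through the adult samples, as the Zbtb16 intron peak with 2 and 6 open calls at P0. The part of the filter in these shares was not tested. The Zbtb16 intron peak printed above, 98206 bp from the start, was open in 0.651 and 1.66% of podocytes (P0), 17.0% (P21) and 14.0 and 28.2% (P56). It rose by 4.05 ± 0.47 (edgeR adjusted p = 2.28e-09) and holds 1 match of the glucocorticoid response element. The Per2 intron peak was open in 4.23 and 4.42% of podocytes (P0), 12.8% (P21) and 14.6 and 30.8% (P56) and rose by 2.25 ± 0.37, although Per2 did not pass as a gene, and its sequence holds 2 adjoining matches of the same element. Within Nr1d1 a peak at chr11:98773819-98774492 was open in 11.4 and 18.2% of podocytes (P0), 38.3% (P21) and 19.1 and 64.1% (P56), with the first P56 sample near the P0 samples. It rose by 1.30 ± 0.23 (edgeR adjusted p = 4.62e-05).

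The peak with the smallest p in podocytes lay at chr12:32767872-32769120, 51049 bp from the start of Nampt, which encodes an enzyme of NAD synthesis. It was open in 2.61 and 3.59% of podocytes (P0), 34.0% (P21) and 19.1 and 46.2% (P56). All adult samples were far above both P0 samples, with a difference of 3.35 ± 0.34 (edgeR adjusted p = 3.98e-11). A peak at chr19:23134022-23136407, over the start of a noncoding transcript and 6012 bp from the start of Klf9, was open in 15.6 and 14.6% of podocytes (P0), 55.3% (P21) and 36.9 and 56.4% (P56) and rose by 1.84 ± 0.20. An intron peak of Pitpnc1, a phosphatidylinositol transfer protein gene, was open in 0.326 and 1.93% of podocytes (P0), 17.0% (P21) and 14.6 and 30.8% (P56) and rose by 4.12 ± 0.47. A peak 28135 bp from Lif, a cytokine of the interleukin-6 family, was open in 6.19 and 11.0% of podocytes (P0), 34.0% (P21) and 25.5 and 51.3% (P56) and rose by 2.13 ± 0.25. The other adult-higher peaks of the 8 with the smallest p had BC048507, Bbs10 and Slain2 as their nearest coding starts, at 1887, 79060 and 95 bp, with differences of 2.28, 1.82 and 5.27. The Slain2 peak held 0 and 2 (P0), 5 (P21) and 16 and 7 (P56) open calls. It passed the filter through the adult samples, and its difference had an SE of 0.69.

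Among the P0-higher peaks, that with the smallest p lay at chr6:51178299-51179070, 253986 bp from the nearest coding start, that of Nfe2l3. It was open in 25.4 and 38.4% of podocytes (P0), 6.38% (P21) and 3.82 and 5.13% (P56), and fell by 2.51 ± 0.32 (edgeR adjusted p = 3.61e-08). Several of these peaks had no open call, or few, in the adult podocytes. The Usp6nl peak printed above was open in 14.3 and 14.6% of podocytes (P0), 0% (P21) and 0.637 and 0% (P56), and peaks near Mvk and Cass4 likewise had 0% in 2 adult samples. A peak at chr15:52161731-52162382 had no open call in the 243 adult podocytes against 35 and 45 (P0), 0 (P21) and 0 and 0 (P56) open calls, and was at least 7.81-fold lower in adult, with a floor of 3 open calls over the group. An intron peak of Gfra1 was open in 14.3 and 16.0% of podocytes (P0), 2.13% (P21) and 0.637 and 0% (P56) and fell by 3.81 ± 0.63, in the same direction as the gene. The Arpp21 peak printed above fell by 1.89 ± 0.32 and a peak near Csnk1g2 fell by 1.75 ± 0.29.

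The letters of some motifs were more frequent in one group of peaks than in the other. Motifs were searched on both strands in the central 300 bp of 749 adult-higher, 273 P0-higher and 3210 uncalled peaks away from starts. The NFI motif TTGGCA, bound by the factors that Nfia encodes, was in 24.8% of adult-higher, 14.7% of P0-higher and 16.4% of uncalled peaks, and in 18.4% of all peaks away from starts. The glucocorticoid response element ACANNNTGT was in 11.2%, 6.59% and 7.54% of these, and in 10.4% of all. The PAR bZIP motif TTANGTAA, bound by Dbp and Hlf, was in 4.41%, 0.366% and 1.84%, and in 3.25% of all. These 2 motifs were added after values had been seen.

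The E-box CAGCTG, bound by basic helix-loop-helix factors, ran the other way, with 25.2% of adult-higher, 43.6% of P0-higher and 31.5% of uncalled peaks, and 19.8% of all. The WT1 or EGR core GTGGGNG was in 31.1%, 40.3% and 39.1% and in 21.9% of all, and the homeodomain motif TAATTA in 12.3%, 7.69% and 9.22% and in 9.34% of all. The KLF or SP motif GGGCGGG was in 4.54%, 11.7% and 14.0% and in 3.13% of all. The median GC content of these windows was 49% in adult-higher, 53.3% in P0-higher and 52.3% in uncalled peaks, and its part in these shares was not tested. A match of letters is a description and does not show that a factor was bound.

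**Figure D4:**
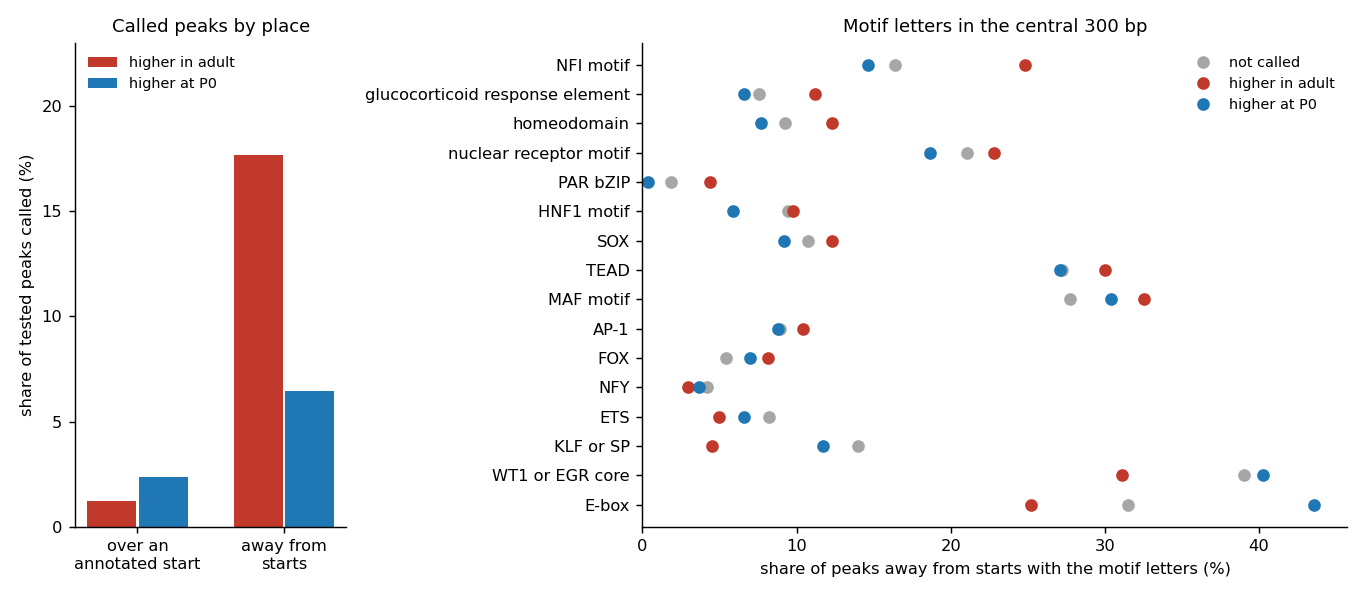
Left, share of tested podocyte peaks called higher in adult (red) or higher at P0 (blue), in percent, over an annotated start and away from starts. Right, share of peaks away from starts with the letters of each motif in the central 300 bp (x axis, percent), for adult-higher (red), P0-higher (blue) and uncalled (grey) peaks; the NFI motif is at 24.8%, 14.7% and 16.4%, and the E-box at 25.2%, 43.6% and 31.5%.

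The P21 sample was compared with the P56 samples at genes chosen without it. Of the 1188 genes called between P0 and P56 podocytes, 1100 were also tested with P21 included. On a scale from 0 at the P0 mean to 1 at the P56 mean, the P21 sample had a median position of 0.823, and it was nearer to P56 at 852 of these genes, 77.5%. At genes higher in P56 its median position was 0.780, and at those lower in P56 0.873. Klf15 was among the genes for which P21 was near P0, with 40.1 against 77.8 and 79.8 CPM in the P56 samples. The genes were chosen by the same P0 and P56 values that set the scale. A position under 1 therefore does not show that P21 was short of P56. The P21 value rests on 47 nuclei of 1 sample.

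The stage difference of podocytes was also set against that of 12 further cell types in the same 5 samples, by an edgeR contrast with their mean, called the other cell types below. Of 13452 genes, 475 had a difference above that of the other cell types, 3.53%, and 67 one below it, 0.498%. Of the 475, 251 were genes that rose in podocytes and 224 were not called there. The genes that rose in podocytes had a median of 0.75 in podocytes and of 0.30 in the other cell types, and those that fell had -1.17 and -0.82. For 41 genes the contrast had no usable error because a cell type held no open call.

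Of 18 slit diaphragm genes 8 were above the other cell types and none below. In these genes the other cell types had a median difference of -0.37, against 0.42 in podocytes. Nphs1, which overlapped between the stages in podocytes, had a difference of -1.40 in the other cell types, so that the stage differences differed by 1.42 ± 0.26 (edgeR adjusted p = 1.35e-04). Plce1 rose in podocytes and stood at -0.37 in the others, a gap of 1.34 ± 0.30 (edgeR adjusted p = 0.00327). Kirrel and Magi2 were above by 1.89 ± 0.21 and 1.00 ± 0.17. The foot process list had 10 of 30 members above, with Myo1e above by 0.94 ± 0.16 and Clic5 by 1.13 ± 0.17, and with none below. The median of the podocyte marker list over the other cell types was 3.34 per 10000 open calls at P0 and 2.44 in adults, although it was higher in adults in the endothelium and both stroma clusters, and the part of these changes in the gaps was not tested.

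The transcription factors had 6 of 16 members above. For Lmx1b, a homeodomain factor mutated in nail-patella syndrome, podocytes had 237 and 252 (P0), 326 (P21) and 333 and 286 (P56). The adult samples were all higher, but the difference of 0.37 ± 0.14 did not pass, whereas it was -1.60 in the other cell types, a gap of 1.93 ± 0.17 (edgeR adjusted p = 1.13e-12). Tcf21 and Wt1, which did not pass in podocytes, were above the others by 2.16 ± 0.33 and 1.42 ± 0.40. Nfia was above by 0.67 ± 0.17, and there the other cell types stood at 0.08. Of the signals, Sulf1 was above by 1.88 ± 0.23 and Pdgfa had a gap of -0.95 ± 0.27 (edgeR adjusted p = 0.0296).

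The hormone and clock genes had mostly positive differences in the other cell types too. Their median was 0.45 in the other cell types against 0.62 in podocytes, and 1 of 18 members, Rora, was above. For Zbtb16 the other cell types had 1.30 and for Klf9 0.79. Col4a3 likewise had 1.20 in the others and did not pass this test (gap -0.27 ± 0.20, edgeR adjusted p = 0.622). Il6ra was 0.02 in the others and above them by 1.80 ± 0.23 (edgeR adjusted p = 1.34e-07). Of the P0-side genes, Lef1 stood at -1.17 and Cdh4 at -1.06 in the others, and neither passed the test of the gap.

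**Figure D5:**
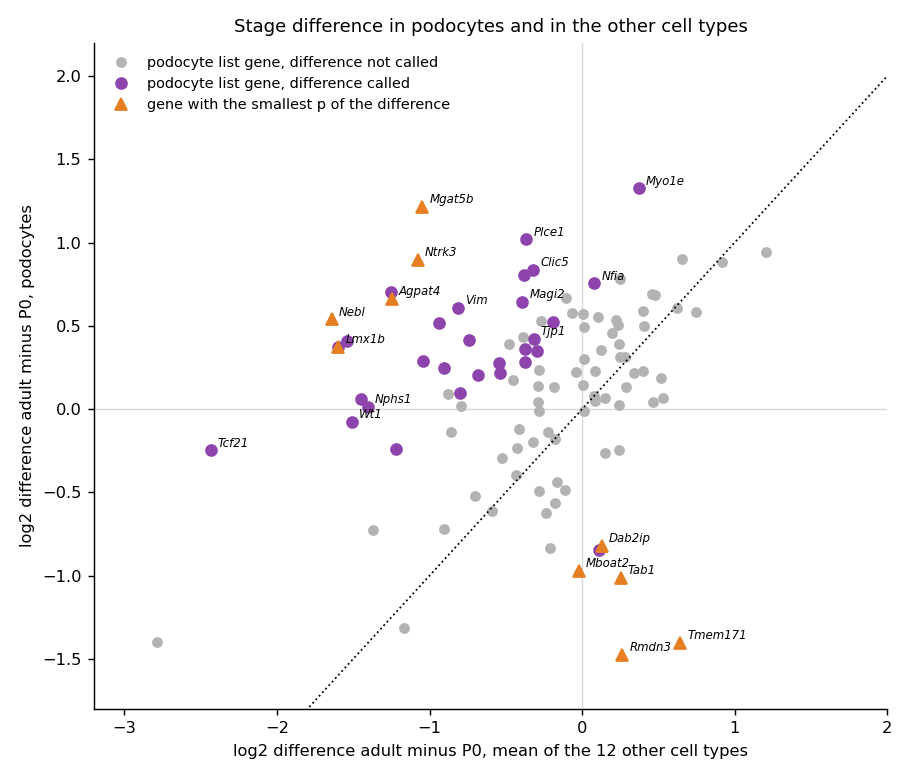
Log2 difference adult minus P0 in podocytes (y axis) and averaged over 12 other cell types in the same samples (x axis). Points are genes of the 5 podocyte lists, purple where the edgeR contrast passed, orange triangles are the 5 genes with the smallest p of the contrast in each direction, and the dotted line marks equal differences; Nphs1 lies at 0.01 in podocytes and -1.40 in the others.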

How the data were processed

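For the snATAC-seq libraries the authors used Cell Ranger ATAC 1.1.0 with the mm10 genome, filtered barcodes, clustered the nuclei and gave the clusters cell type names by their markers, and MACS2 then called peaks per cell type after pooling the samples. The deposited counts are a binarized matrix of nuclei by peaks, in which the authors wrote 1 for a nucleus with a fragment in a peak, so fragments are not counted and depth is not scaled. Positions of the deposited peak list, which stand in the place of a score, were used as coordinates. The cluster and sample names of the deposited annotation were used as they are.

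Open calls of the Podo nuclei were summed per sample over each peak and over each GENCODE M21 gene with 2 kb upstream, so a peak in several windows counts for each gene. The sum over a single peak can be no larger than the number of nuclei. The sums were tested with edgeR 4.0.16 in R 4.3.3, with TMM normalization and the quasi-likelihood test. Benjamini-Hochberg adjustment at 0.05 ran over every feature kept by filterByExpr. That filter asked for a count of 10, scaled to the library size of each sample, and a total of 15. DESeq2 1.42.0 was an alternative. SE denotes the absolute log2 difference over the square root of F. The difference from the other cell types was an edgeR contrast over 65 sums of at least 20 nuclei, with cell type by stage and with the sample as a block, while the log2 differences quoted for the other cell types come from the fit without that block. The tests were tried on simulated data. Sequences come from the GRCm38 genome, and motifs were searched on the numbered chromosomes, X and Y.

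Depth ranged from 192729 to 1834632 open calls per podocyte sum, and sums near the minimum count carry a large counting error. The members, gene lists and tests were chosen with earlier results of these data known. All list members may be named, with the 10 genes and 8 peaks of smallest p per direction that did not overlap between stages and the 5 genes of smallest p per direction of the contrast. Alternatives were other normalizations and filters, a replicate block, thinning to 1000 open peaks, equal numbers of nuclei, other gene windows, leaving out mixed nuclei or 1 sample, and, added after the data were seen, a correction for saturation. No doublet caller was run. The bulk ATAC-seq and scRNA-seq samples were not used here, and values of some single genes are not reported here.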

Additional observations from a re-analysis of the deposited data

Results flagged for a closer look

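For 10 genes the stage difference in podocytes differed from that averaged over 12 other cell types in the same samples, as the 5 with the smallest p of the edgeR contrast in each direction. Chosen as extremes of a test over 13452 genes, they are given as values. Above the other cell types were Ntrk3, the neurotrophin-3 receptor gene, with a gap of 1.91 ± 0.16 (edgeR adjusted p = 1.85e-13), and Lmx1b with 1.93 ± 0.17. Ntrk3 had 176 and 176 (P0), 321 (P21) and 379 and 253 (P56) CPM in podocytes, all adult samples above P0, and -1.08 on the log2 scale in the other cell types. Nebl, which encodes the actin binding protein nebulette, had a gap of 2.06 ± 0.18. Nebl rose by 0.54 ± 0.15 in podocytes and stood at -1.64 in the others. Mgat5b, a glycosyltransferase gene, had a gap of 2.32 ± 0.24, and Agpat4, a lipid acyltransferase gene, of 1.85 ± 0.19.

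Below the other cell types was Tab1, an adaptor of the kinase TAK1, with a gap of -1.24 ± 0.22 (edgeR adjusted p = 1e-04). Podocytes had 138 and 136 (P0), 63.0 (P21) and 63.2 and 79.8 (P56) CPM of Tab1, all adult samples below P0, and the others had 0.25 on the log2 scale. Rmdn3, a mitochondrial tether gene, had a gap of -1.72 ± 0.32 and Dab2ip, a Ras GTPase activating protein gene, of -0.99 ± 0.19. Tmem171 had a gap of -2.03 ± 0.42 on few open calls, with 52 and 60 (P0), 3 (P21) and 5 and 4 (P56) in podocytes. Mboat2, an acyltransferase gene, had a gap of -0.97 ± 0.21, with a podocyte difference of -0.97 ± 0.18 and -0.02 in the others.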

How the results depend on the processing

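The number of calls differed with the tool and the sample, while directions were mostly kept. Of 3473 alternative values of 215 genes, 3055 kept direction and side of the threshold, 384 lost and 29 gained a call, and 5 reversed, while of 205 values of the 16 peaks of smallest p 195 kept both and 10 lost the call. The 57 called peaks in the list windows kept their call in 397 of 680 values and lost it in 283, and 4 of the 57 kept it throughout. The 5 reversals were Tjp1 with equal numbers of nuclei (-0.12) and at starts only (-0.25), Nfib (-0.62) and Esrrg (-1.04) without mixed nuclei, and Igf1r at starts only (-0.12), and their cause was not tested. Against 1355 peaks in the report, DESeq2 called 494, scaling by nuclei 259, no filter 3798 (431 higher, 3367 lower), a minimum count of 20 gave 241, thinning 3, equal numbers of nuclei 3 and leaving out mixed nuclei 587. Against 1732 genes, the counts were 399 with DESeq2, 171 scaled by nuclei, 1147 at a minimum count of 20, 112 thinned, 196 with equal numbers of nuclei, 1077 without mixed nuclei and 518 at starts only. Thinning and equal numbers of nuclei also left fewer features to test. Leaving out 1 sample gave 291 to 2117 peaks and 671 to 1388 genes, with the lowest counts when the first P0 sample was left out and, for peaks, the highest without P21. The contrast with the other cell types gave 542 genes, 172 to 511 with 1 sample left out, and 297 peaks, 109 at a minimum count of 20 and 17 to 308 with 1 sample left out. Correction for saturation, added after the data were seen, gave 1358 peaks and 1315 genes. Without the replicate numbers as a pairing the report stands as given. With the replicate block the counts were 1164 peaks and 1459 genes, and 44 of the 53 called list genes kept their call, Col4a2 not among them (edgeR adjusted p = 0.0641). The labels do not tie the numbers to a litter or day, and the deviations of same-numbered P0 and P56 samples had a correlation of 0.269 over 209 peaks and 0.161 over 2238 genes. The podocyte share kept its direction with each sample left out. The minimum count of 10 was scaled to library size, so peaks open in few of the 39 to 362 nuclei of a sample could not be judged.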

Other observations

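Markers of 6 other cell types in the podocyte sums overlapped between the stages, among them those of the loop of Henle, with 0.300 to 0.465 per 10000 open calls at P0 and 0.274 to 0.784 in adults, of stromal and mesangial cells, with 1.41 to 1.79 and 1.24 to 2.13, and of immune cells, with 0.326 to 0.371 and 0.156 to 0.358. Parietal epithelial markers, which belong to the other epithelium of the glomerulus, stood at 3.04 to 3.05 at P0 and 2.89 to 3.60 in adults. The share of mixed nuclei was 37.1% and 28.5% (P0), 14.9% (P21) and 25.5% and 33.3% (P56). The fetal RNA binding gene Igf2bp1 had 88.7 and 116 (P0), 57.3 (P21) and 97.2 and 65.7 (P56) CPM in podocytes, and Hmga2, a chromatin protein gene of growing tissues, had 118 and 102 (P0), 57.3 (P21) and 80.2 and 79.8 (P56), with all adult samples lower and an edgeR adjusted p of 0.0668. Pdk4, which holds back glucose oxidation, was lower in all adult podocyte samples, with 73.8 and 64.8 (P0), 45.8 (P21) and 53.5 and 51.6 (P56) and a difference of -0.42 ± 0.24 that did not pass, while the other cell types stood at 0.54, and the gap of -0.995 ± 0.25 passed the contrast (edgeR adjusted p = 0.00887).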
